A study of Mus musculus with 162 samples.

Results

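The 10 genes described here belong to the growth hormone and insulin-like growth factor (IGF) axis: the receptor gene Ghr, the ligand genes Igf1 and Igf2, the carrier and binding protein genes Igfals, Igfbp1, Igfbp2, Igfbp3 and Igfbp4, and the inhibitor genes Socs2 and Socs3. They were taken by gene symbol, and all 10 symbols were found among the 53686 genes of the count table. Messenger RNA was measured in 9 organs of each of 18 mice fasted for up to 22 h. The organs were olfactory bulb (OB), brain (BRN), cerebellum (CBL), brainstem (BST), stomach (STM), liver (LIV), interscapular brown fat (iBAT), perigonadal white fat (pgWAT) and subcutaneous white fat (psWAT). Every mouse was a male of the C57BL/6J strain aged 8 to 9 weeks, kept under 12 h of light and 12 h of dark. The mice were killed from zeitgeber time 13.5 (ZT, hours after lights on) onward, in the dark phase. Each of 6 fasting times had 3 mice, and mice at 0 h had food at all times. Food was taken away at ZT 11.5, 5.5 and 1.5 for 2, 8 and 12 h, in the light phase, and at ZT 19.5 and 15.5 for 18 and 22 h, in the dark phase before. Below, 0 h is called fed, the 2, 8 and 12 h mice are the daytime group (at most 9 libraries an organ), and the 18 and 22 h mice are the late group (at most 6).

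Growth hormone from the pituitary binds its receptor on hepatocytes and, through a Janus kinase and the transcription factor STAT5, drives transcription of Igf1, Igfals and Socs2. Most circulating IGF1 travels in a complex with IGFBP3 and the acid labile subunit encoded by Igfals, while the other binding proteins carry IGFs outside that complex, and hepatic Igfbp1 is known for its repression by insulin. SOCS2 damps signalling of the growth hormone receptor, and SOCS3 that of receptors for interleukin-6 and its relatives.

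The libraries left out for low totals were 5, namely replicate 3 at 8 h and replicate 1 at 18 h of BRN, replicate 3 at 12 h of STM, and at 22 h replicate 2 of psWAT and replicate 1 of iBAT. The rest held 3045845 to 27801717 counts, with a median of 8735554. A further 4 libraries were treated as standing apart from the rest of their organ and were kept. The summed cerebellar neuron markers came to 5492 CPM (counts scaled to the size of the library) in psWAT 12 h replicate 3, against a psWAT median of 3.37. The summed adipocyte markers came to 3989 CPM in pgWAT 22 h replicate 2, against a pgWAT median of 33776. The summed neuron markers were lowest in BRN 18 h replicate 2 (3165 CPM) and highest in BRN 2 h replicate 3 (5276 CPM), against a BRN median of 4886. Values without these 4 libraries are given below where a call changed and for some of the other results in BRN and pgWAT, and values printed with no such note include them.

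The labelled organs held their defining markers. The lowest sum over the libraries of an organ was 90444.5 CPM for hepatocyte markers in LIV, 87788 CPM for gastric epithelium in STM, 4479.6 CPM for brown adipocyte markers in iBAT, 7624 CPM for cerebellar neuron markers in CBL, 2041 CPM for olfactory bulb neuron markers in OB and 414 CPM for brainstem neuron markers in BST, and no marker of these lists was at 0 throughout its own organ. Adipocyte markers in psWAT ranged from 522 CPM (22 h replicate 1) to 38054 CPM (8 h replicate 1), and skeletal muscle markers there reached 36803 CPM. In LIV, STM and OB the fed and 2 h libraries and 2 of the 3 at 8 h ran in the first of a pair of sequencing lanes, and the others in the second, so that in these organs late against fed differs by lane as well. In pgWAT all fed libraries ran in lane 5 and all late libraries in lane 6. In iBAT the late libraries 18 h replicate 2 and 22 h replicates 2 and 3 ran in lanes 2, 1 and 3, with no fed or daytime library of iBAT. For these libraries lane and fasting time cannot be told apart.

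Of 90 pairs of a gene and an organ, 73 passed the filter on low counts. Ghr, Igf1, Igfbp3, Igfbp4, Socs2 and Socs3 were tested in all 9 organs, Igfbp2 in 8 (not in iBAT), Igfals in 5 (LIV, STM and the 3 fats), Igf2 in 4 (the brain organs) and Igfbp1 in 2 (LIV and pgWAT). Igf2 had no count in any LIV library, which over the 162443674 summed counts of LIV allows up to 0.0185 CPM, and Igfbp1 had none in iBAT, which over 198270045 counts allows up to 0.0151 CPM. These limits cover counting error only. The libraries were stranded, but the strand setting of the counting is not stated. How reads were counted where Igf1 overlaps its antisense transcript Igf1os, or Igf2 overlaps Igf2os, is therefore not known. Reads there may be missing from the counts of these genes.

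The question of where each gene of the axis is transcribed was answered by its level in the 9 organs, in CPM scaled over the libraries of all organs, with the mean over all libraries of an organ. LIV held the highest mean of Igf1, Igfals, Igfbp1, Igfbp2 and Igfbp4, pgWAT that of Ghr, psWAT that of Igfbp3 and Socs3, STM that of Socs2, and CBL that of Igf2. For 7 of the 10 genes the highest organ differed from the next at an adjusted p under 0.05 in a fit that paired organs by mouse. For these pairs of organs the share of all 22113 genes tested that differed was 76.1% (pgWAT and LIV), 74.9% (LIV and STM), 73.1% (psWAT and STM) and 51.5% (CBL and OB), so that a difference between organs is what most genes show. The white fats were extracted with another kit than the other organs, and kit and organ cannot be told apart in a comparison that involves them.

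**Figure D1:**
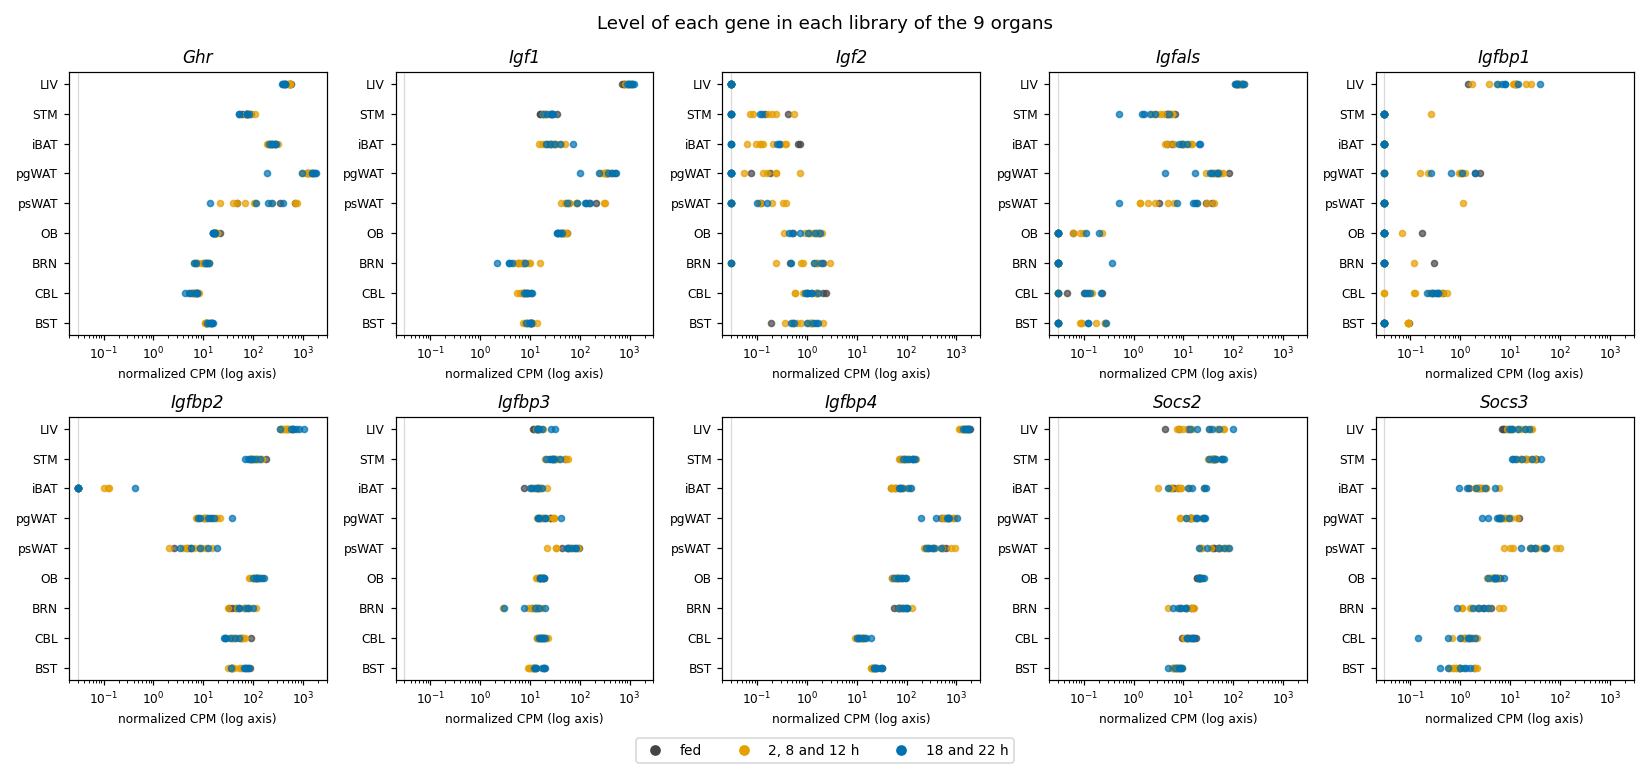
CPM of each of the 10 genes (logarithmic axis) in every library of the 9 organs, 1 panel a gene, with points for libraries. The CPM drawn here were scaled within each organ. They therefore differ from the values in the text on levels between organs, which were scaled over all organs. Libraries at 0 are drawn at 0.03. Igf1, Igfals, Igfbp2 and Igfbp4 lie higher in every LIV library than in any library of another organ.

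Ghr, the growth hormone receptor gene, averaged 1238 CPM (SD 347, n = 18) in pgWAT and 755 CPM (SD 100.4, n = 18) in LIV. The ranges overlapped, from 168.5 to 1683 CPM in pgWAT and from 623 to 918 CPM in LIV, and the lowest pgWAT library was the one poor in adipocyte markers (22 h replicate 2). The difference was 0.71 on the log2 scale (SE 0.20, adjusted p = 0.000696), and 0.71 to 0.82 under the 4 alternatives run for it. Below LIV came iBAT (339 CPM), psWAT (184), STM (87.8), OB (14.5), BST (11.5), BRN (8.74) and CBL (5.28). Libraries of neighbours in that order did not overlap between LIV and iBAT or between STM and OB, and overlapped elsewhere.

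Igf1, which encodes the main circulating ligand, averaged 1531 CPM (SD 224, n = 18) in LIV, with 1074 CPM in the lowest library and 1941 CPM in the highest. The next organ, pgWAT, averaged 325 CPM and reached 494 CPM, so the organs did not overlap. The difference was 2.25 on the log2 scale (SE 0.16, adjusted p = 1.83e-27). psWAT (94.8 CPM), iBAT (43.1), OB (37.1) and STM (26.7) followed with overlapping ranges, and BST (8.94), CBL (6.60) and BRN (6.05) lay below every STM library and overlapped one another. Igf2, the fetal ligand gene, stayed near the limit of detection: the means were 1.05 CPM in CBL, 1.02 in OB, 0.892 in BST and 0.874 in BRN, and 0.301 CPM or less in the other organs. CBL and OB differed by -0.01 on the log2 scale (adjusted p = 0.998), and every pair of neighbours in the Igf2 order overlapped.

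Among the genes of the circulating complex, Igfals averaged 208 CPM (SD 25.9, n = 18) in LIV and 40.1 CPM in pgWAT, without overlap (log2 difference 2.42, SE 0.23, adjusted p = 2.85e-20). Next in order were iBAT (14.5 CPM), psWAT (10.5) and STM (4.43), and the mean was 0.0754 CPM or less in each brain organ. Means of Igfbp3 ran from 49.4 CPM in psWAT and 39.2 CPM in STM through 25.6 CPM in LIV to 10.6 CPM in BRN, and all neighbours overlapped. The psWAT and STM levels of Igfbp3 differed by 0.35 on the log2 scale (SE 0.14, adjusted p = 0.0195). That call was lost with the 5 left-out libraries put back (0.29, adjusted p = 0.0622, and 0.00422 to 0.0622 over alternatives), and without replicate 1 (0.30, adjusted p = 0.169) or replicate 2 (0.17, adjusted p = 0.318).

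Of the other binding protein genes, Igfbp4 averaged 2412 CPM in LIV and 611 CPM in pgWAT (log2 difference 1.99, SE 0.13, adjusted p = 1.7e-31) and 10.3 CPM in CBL, the lowest. Igfbp2 averaged 859 CPM in LIV and 127 CPM in STM (2.72, SE 0.19, adjusted p = 8.09e-30), lay between 38.5 and 98.6 CPM in the brain organs, and was at 0 in 13 of 17 iBAT libraries. For both genes LIV and the next organ did not overlap. Igfbp1, which insulin is known to repress, averaged 19.4 CPM in LIV and 0.720 CPM in pgWAT (4.65, SE 0.31, adjusted p = 1.11e-28). Its ranges touched, since the lowest LIV library had 2.20 CPM and the highest pgWAT library 2.32 CPM. For the inhibitor genes the highest organ did not differ from the next by the test: Socs2 averaged 51.5 CPM in STM and 47.6 CPM in LIV (0.29, adjusted p = 0.164), and Socs3 averaged 30.1 CPM in psWAT and 26.4 CPM in STM (0.10, adjusted p = 0.647).

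Between genes, levels can be compared per length only, here in CPM per kilobase of exon with each organ scaled on its own. The exon lengths come from a later Gencode release than the M16 used for the counts. In LIV the order was Igfbp4 (342), Igfbp2 (292), Igf1 (96.6), Ghr (52.1), Igfals (41.1), Igfbp1 (7.92), Igfbp3 (5.13), Socs3 (4.92), Socs2 (3.16) and Igf2 (0). Igfbp2 came first per kilobase in STM (59.3), OB (63.5), BRN (34.7), CBL (25.8) and BST (29.8), Igfbp4 in psWAT (95.1), and Ghr in iBAT (26.9). In pgWAT Igfbp4 (149.5) came first, followed closely by Ghr.

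Over fasting time, late against fed asks what a fast begun in the dark phase of the night before changed, daytime against fed what a fast begun in the light phase changed, and late against daytime compares both without the fed mice. The first pair share the 3 fed mice and each pair of comparisons shares a group, so their values are given side by side and are not independent. Late against fed called 7 of the 73 tested pairs of a gene and an organ, 6 higher and 1 lower: Ghr (lower), Igf1, Igfbp3 and Socs3 in LIV, Igfals and Igfbp4 in iBAT, and Igfbp2 in BRN. Daytime against fed called 1, Socs3 in LIV, and late against daytime called 5: Igfbp2 in LIV, Igfbp4 and Socs2 in iBAT, Igfbp2 in OB, and Igf1 in OB (lower). At an unadjusted p under 0.05 the counts were 16, 10 and 16, and DESeq2 called 11, 3 and 7. Daytime against fed and late against daytime, 11374 and 27512 of 130194 tests over the 8 organs other than LIV passed it, beside 5 and 12 of 64 of the axis. DESeq2 called 2062 and 14136 there, beside 1 and 5 of the axis. In LIV 2572 and 2762 of 14023 genes had an unadjusted p under 0.05 in these comparisons. Of all genes late against fed, 3740 of 14023 had an unadjusted p under 0.05 in LIV (1766 called by DESeq2), 5381 of 14529 in iBAT (3949), 4862 of 16749 in BRN (3128) and 3813 of 16742 in OB (875), beside 5 of 9, 3 of 7, 2 of 8 and 1 of 8 of the genes of the axis. Asking for a log2 fold over 1 as well left Igfals in iBAT late against fed, Socs3 in LIV daytime against fed and Socs2 in iBAT late against daytime.

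The same rule called, of all genes tested late against fed, 10.6% in LIV, 20.9% in iBAT and 15.3% in STM, 0.00609% in pgWAT and 0% in psWAT, and of the brain organs 0.344% in CBL, 0.0596% in BST, 1.95% in OB and 11.2% in BRN. For daytime against fed the shares were 2.75% in LIV, 0% in STM, 0.833% in iBAT, 0% in pgWAT, psWAT, OB and CBL, 2.96% in BRN and 0.00596% in BST. For late against daytime they were 2.67% in LIV, 14.2% in STM, 34.6% in iBAT, 0% in pgWAT, psWAT and BRN, 1.53% in CBL, 0.256% in BST and 24.2% in OB. Where edgeR called 0 genes, the count at an unadjusted p under 0.05 and that called by DESeq2 were, late against fed, 867 and 12 in psWAT, for daytime against fed, 837 and 6 in STM, 1209 and 14 in pgWAT, 594 and 5 in psWAT, 972 and 2 in OB, 1441 and 11 in CBL, and for late against daytime, 2555 and 430 in pgWAT, 753 and 3 in psWAT, 1180 and 7 in BRN. Set against these shares, 4 called of 9 tested in LIV late against fed stands above 10.6%, 2 of 7 in iBAT lies near 20.9%, and 1 of 8 in BRN lies near 11.2%. The LIV count was not tested against that share. All 4 LIV calls were lost with lane as a covariate (adjusted p 0.148 to 0.522). Late against daytime, 2 of 7 in iBAT and 2 of 8 in OB lie near 34.6% and 24.2%.

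**Figure D2:**
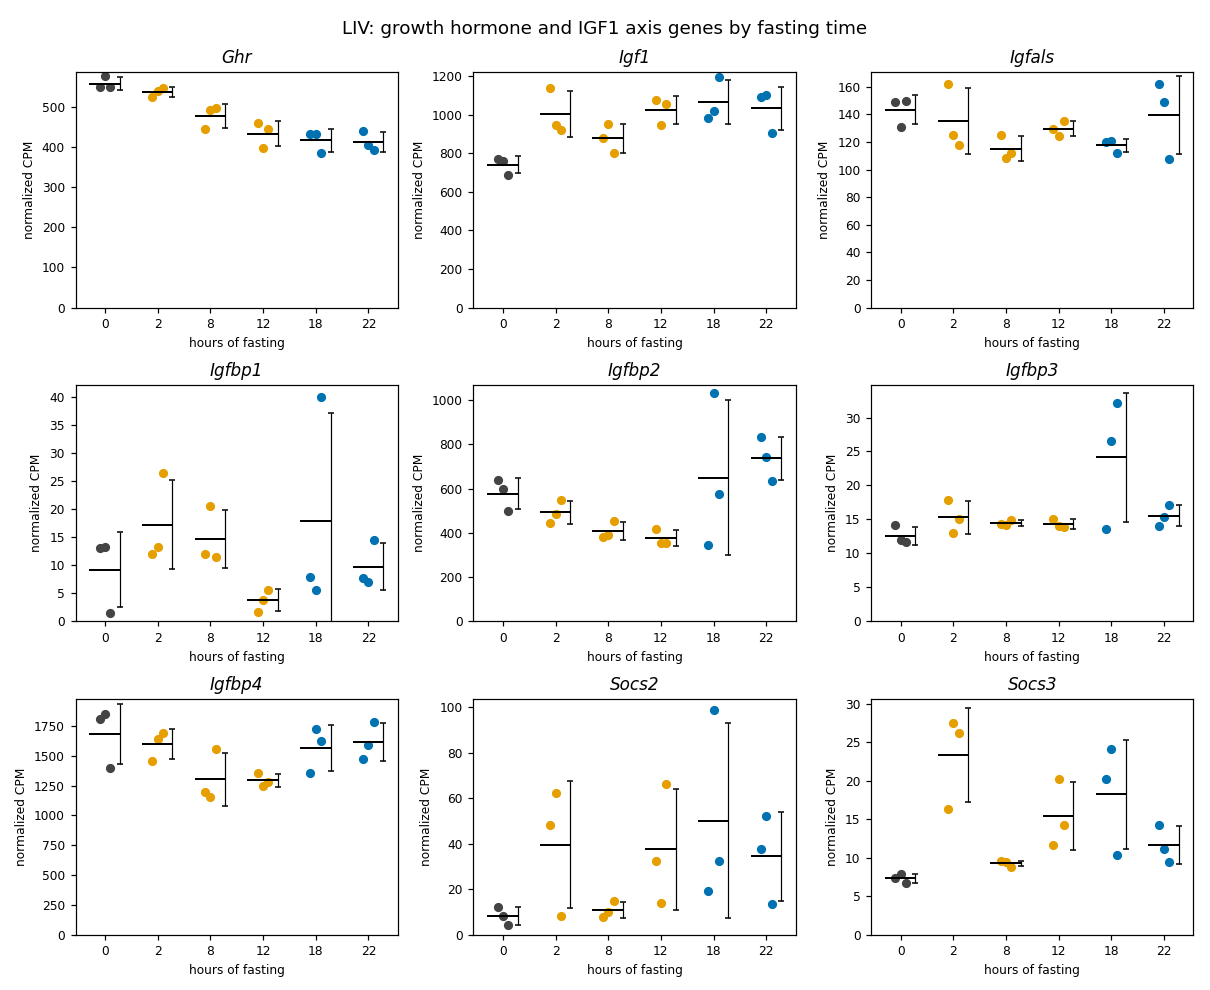
CPM of the genes of the axis other than Igf2 in each LIV library (vertical axes, 1 panel a gene) against fasting time in hours, with points for the 3 mice of a time. Every fasted library lies below the fed ones for Ghr and above them for Igf1 and Socs3.

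In LIV, messenger RNA of the growth hormone receptor fell over the fast. Ghr was at 548, 577 and 548 CPM in the fed mice, at 397 to 546 CPM (median 491) in the daytime group and at 384 to 440 CPM (median 418) in the late group. All 15 fasted libraries lay below all 3 fed ones, and the 2 h libraries (523, 540 and 546 CPM) lay closest to them. In bulk samples, fewer cells of a type and less RNA per cell cannot be told apart. Late against fed, Ghr fell by 0.43 on the log2 scale (SE 0.09, adjusted p = 0.00503), to 0.743 of the fed level. The daytime difference was -0.22 (adjusted p = 0.172) and late against daytime -0.21 (adjusted p = 0.0901, and 0.0131 to 0.628 over alternatives, with 1 of 11 calling it). With lane as a covariate the late value was -0.52 (adjusted p = 0.187), and the call was also lost without replicate 2 of every time (-0.41, adjusted p = 0.123) or replicate 3 (-0.41, adjusted p = 0.0517). Over the alternatives with all replicates it lay between -0.52 and -0.42, with adjusted p from 9.9e-06 to 0.187.

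Igf1, the main transcriptional output of that receptor in liver, was higher in LIV of fasted mice. It was at 770, 761 and 689 CPM in the fed mice, at 804 to 1137 CPM (median 948) in the daytime group and at 904 to 1196 CPM (median 1055) in the late group. The fed libraries and the 15 fasted ones did not overlap in either comparison. Late against fed, Igf1 rose 1.42-fold (log2 0.50, SE 0.11, adjusted p = 0.00696). Daytime against fed gave 0.38 (SE 0.11, adjusted p = 0.0511), with 1137, 948 and 920 CPM already at 2 h. Without any 1 of 2 h replicate 2, 8 h replicate 3, 18 h replicates 1, 2 and 3, or 22 h replicate 3, the daytime value was 0.38 to 0.40 and was called (adjusted p 0.0393 to 0.0464), as it was by DESeq2 (adjusted p = 0.00716). Among first-lane libraries alone it was 0.38 (adjusted p = 0.164), and its adjusted p ran from 0.00716 to 0.164 over alternatives. The late value lost its call with lane as a covariate (0.69, adjusted p = 0.148) and without replicate 2 of every time (0.51, adjusted p = 0.122) and lay between 0.48 and 0.69 over the alternatives with all replicates (adjusted p 0.00021 to 0.148). Igf2 was at 0 in all 18 LIV libraries.

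Of the partners of IGF1 in the circulating complex, Igfbp3 was called in LIV and Igfals was not, and the difference between them was not tested. Igfbp3 was at 14.1, 11.9 and 11.7 CPM in fed LIV, at 13.0 to 17.8 CPM (median 14.4) in the daytime group, at 13.6, 26.6 and 32.1 CPM at 18 h and at 14.1, 15.3 and 17.2 CPM at 22 h. The groups overlapped, with 18 h replicates 2 and 3 far above the rest. Late against fed, Igfbp3 rose 1.54-fold (log2 0.62, SE 0.19, adjusted p = 0.0445). The call was lost with 22 h alone (0.30, adjusted p = 0.471), with lane as a covariate (0.55, adjusted p = 0.522), with the replicate block (0.61, adjusted p = 0.0635), and without any 1 of 0 h replicates 1, 2 and 3, 2 h replicate 3, 8 h replicates 1, 2 and 3, 12 h replicates 2 and 3, 18 h replicates 2 and 3, or 22 h replicates 2 and 3 (0.48 to 0.71, adjusted p 0.0515 to 0.155). It was also lost without replicate 2 (0.54, adjusted p = 0.339) or 3 (0.38, adjusted p = 0.358) of every time, and 6 of 21 fits with libraries left out called it. Over the alternatives with all replicates the value lay between 0.30 and 0.94 (adjusted p 0.00844 to 0.522). Late against daytime it was 0.40 (adjusted p = 0.112), with values of 0.08 (22 h alone) to 0.72 (18 h alone) and adjusted p of 0.0337 to 0.872 over alternatives, and it was called without 18 h replicate 1 (0.54, adjusted p = 0.00453) and without replicate 1 of every time (0.63, adjusted p = 0.0128). Igfals, the acid labile subunit gene, was at 149.2, 131.1 and 149.8 CPM in the fed mice, and ranged from 108 to 162.3 CPM in both fasted groups. Its groups overlapped, and late against fed gave -0.16 (adjusted p = 0.416).

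Igfbp2, whose product binds IGFs outside the large complex, was higher in LIV late in the fast than in the daytime fast. LIV held 638, 596 and 499 CPM in the fed mice, 352 to 549 CPM (median 419) in the daytime group, 344, 1030 and 575 CPM at 18 h and 832, 743 and 636 CPM at 22 h. Of 6 late libraries, 5 lay above every daytime library and 18 h replicate 1 lay below them all. Late against daytime, Igfbp2 rose 1.64-fold (log2 0.71, SE 0.17, adjusted p = 0.0347). Late against fed gave 0.26 (adjusted p = 0.510), and daytime against fed -0.45 (adjusted p = 0.263, and 0.0151 to 0.317 over alternatives). Among second-lane libraries alone late against daytime was 0.74 (adjusted p = 0.482), with lane as a covariate 0.58 (adjusted p = 0.532), with the replicate block 0.69 (adjusted p = 0.0557), with 22 h alone 0.80 (adjusted p = 0.104) and with 18 h alone 0.62 (adjusted p = 0.132), and over alternatives the adjusted p ran from 5.87e-10 to 0.532. It was also lost without any 1 of 2 h replicates 1 and 2, 8 h replicates 1 and 2, 12 h replicates 2 and 3, 18 h replicates 2 and 3, or 22 h replicates 1, 2 and 3 (0.46 to 0.76, adjusted p 0.0508 to 0.0934), and without replicate 2 (0.43, adjusted p = 0.512) or 3 (0.84, adjusted p = 0.167) of every time.

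Igfbp1, the binding protein gene known to rise when insulin is low, varied between mice of the same time. It was at 13.1, 13.2 and 1.41 CPM in fed LIV, at 1.72 to 26.5 CPM (median 12.0) in the daytime group, at 7.94, 5.57 and 40.1 CPM at 18 h and at 7.73, 6.91 and 14.6 CPM at 22 h. Every group held low and high libraries, and the groups overlapped. Late against fed gave 0.51 (SE 0.70, adjusted p = 0.690), and late against daytime 0.45 (adjusted p = 0.673, and 0.0326 to 0.999 over alternatives). Igfbp4, at 1394 to 1846 CPM in fed LIV and 1155 to 1787 CPM in fasted LIV, gave -0.08 late against fed (adjusted p = 0.719).

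Both inhibitor genes had their lowest mean in LIV at 0 h. Socs3 was at 7.32, 7.86 and 6.76 CPM in the fed mice, at 16.4, 27.6 and 26.3 CPM at 2 h, at 8.84 to 27.6 CPM (median 14.3) over the daytime group and at 9.46 to 24.1 CPM (median 12.7) in the late group. No fasted library overlapped the fed ones, and the 8 h libraries (9.55, 9.39 and 8.84 CPM) came closest. Socs3 rose 2.04-fold daytime against fed (log2 1.03, SE 0.24, adjusted p = 0.0325) and 1.98-fold late against fed (0.99, SE 0.25, adjusted p = 0.0183). Within the first lane the daytime value was 1.03 (adjusted p = 0.0556), and with lane as a covariate the values were 1.08 (adjusted p = 0.0756) and 1.08 (adjusted p = 0.313). Over alternatives the adjusted p ran from 3.53e-06 to 0.0756 for daytime and from 1.68e-05 to 0.313 for late. The late call was also lost with 22 h alone (0.67, adjusted p = 0.188) without any 1 fed library (0.93 to 1.04, adjusted p 0.0627 to 0.0732), and without replicate 1 (0.85, adjusted p = 0.1011) or 2 (0.93, adjusted p = 0.147) of every time. The daytime call was lost without any 1 fed library, 2 h replicate 3, 8 h replicate 1 or 2, or 12 h replicate 2 or 3 (0.94 to 1.09, adjusted p 0.0504 to 0.162), and without replicate 1, 2 or 3 of every time (1.15, 0.95 and 0.98, adjusted p 0.116, 0.267 and 0.0584), so that 10 of 21 fits with libraries left out called it.

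Socs2, a target gene of growth hormone signalling, was at 12.3, 8.11 and 4.23 CPM in fed LIV, at 48.3, 62.3 and 8.28 CPM at 2 h, at 7.58, 10.0 and 14.8 CPM at 8 h, at 32.5, 13.8 and 66.4 CPM at 12 h, at 18.98, 98.9 and 32.4 CPM at 18 h and at 37.5, 52.2 and 13.5 CPM at 22 h. All 6 late libraries lay above all 3 fed ones, and mice of the same time differed widely. The late difference was 4.98-fold but not called by edgeR (log2 2.32, SE 0.83, adjusted p = 0.0972). DESeq2 gave 2.33 and called it (adjusted p = 0.0124), as did edgeR without the filter on low counts (2.31, adjusted p = 3.46e-39), while lane as a covariate gave 1.57 (adjusted p = 0.696), so that the adjusted p ran from 3.46e-39 to 0.696 over alternatives. The value without the filter was nearly that of the main fit, so its far smaller p rests on a smaller estimate of the spread. With mice of the same time so far apart, that p is not a measure of the spread between mice. Daytime against fed, Socs2 gave 1.61 (adjusted p = 0.311, and 2.77e-20 to 0.563 over alternatives, 1 of 9 calling it), and late against daytime 0.71 (adjusted p = 0.4899, and 8.52e-09 to 0.938, 1 of 11 calling it).

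Hepatocyte markers in LIV did not move with the late group: 0 of 8 were called late against fed, their sum averaged 107061 CPM in the fed and 107842 CPM in the late mice, and Alb was the most abundant. Daytime against fed 1 of the 8 fell, Ahsg (log2 -0.50, adjusted p = 0.0477). Of the other marker lists in LIV, 1 of 2 olfactory bulb neuron markers was higher late and daytime against fed (Doc2g, 1.28 late), and 1 of 3 brown adipocyte markers was lower late against daytime (Elovl3). Skeletal muscle markers, none called by edgeR, had a median of 1.19 late against fed and summed to 0.833 to 708 CPM.

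In iBAT the carrier gene Igfals and the binding protein gene Igfbp4 rose late in the fast. Of the late libraries, 18 h replicate 2 and 22 h replicates 2 and 3 ran in lanes with no fed or daytime library of iBAT. Igfals was at 4.65, 9.33 and 5.79 CPM in the fed mice, at 4.21 to 14.9 CPM (median 9.89) in the daytime group, and at 9.21, 20.9, 11.7, 21.98 and 8.13 CPM in the late mice. The groups overlapped, with the lowest late library below the highest fed one. Late against fed, Igfals rose 2.15-fold (log2 1.10, SE 0.35, adjusted p = 0.0344). With 18 h alone the value was 1.07 (adjusted p = 0.357, and 0.0116 to 0.357 over alternatives), and the call was lost without any 1 of 0 h replicate 1, 0 h replicate 3, 18 h replicate 2 or 22 h replicate 2 (0.68 to 1.02, adjusted p 0.0733 to 0.174), and without replicate 1 (1.03, adjusted p = 0.145) or 2 (0.81, adjusted p = 0.151) of every time. Late against daytime, Igfals gave 0.66 (adjusted p = 0.0541, and 0.0326 to 0.865 over alternatives, 4 of 10 calling it). Without replicate 2 of every time it was 0.02, without 22 h replicate 2 it was 0.24 (adjusted p = 0.529), without replicate 3 of every time it was 1.02 (adjusted p = 0.0360), and it was called without any 1 of 0 h replicate 2, 8 h replicate 1, 12 h replicate 3, 18 h replicate 1 or 22 h replicate 3 (0.66 to 0.96, adjusted p 0.00809 to 0.0464).

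Igfbp4 in iBAT was at 49.4, 73.3 and 61.5 CPM in the fed mice, at 49.8 to 115.8 CPM (median 58.8) in the daytime group, and at 79.9, 73.4, 69.9, 123.6 and 107 CPM in the late mice. The late and the fed range overlapped, and the 22 h mice were the highest of the late ones. Igfbp4 rose 1.51-fold late against fed (log2 0.59, SE 0.20, adjusted p = 0.0403) and 1.33-fold late against daytime (0.41, SE 0.15, adjusted p = 0.0363). With 18 h alone the values were 0.28 (adjusted p = 0.784) and 0.10 (adjusted p = 0.927), with the 5 left-out libraries put back 0.44 (adjusted p = 0.206) and 0.26 (adjusted p = 0.259), and with no filter on low counts 0.57 (adjusted p = 0.0675) and 0.40 (adjusted p = 0.0714). Over alternatives the adjusted p ran from 0.00629 to 0.784 and from 0.00602 to 0.927. The late against fed call was lost without any 1 of 0 h replicates 1, 2 and 3, 2 h replicate 2, 8 h replicates 1, 2 and 3, 18 h replicates 1, 2 and 3, or 22 h replicate 2 (0.45 to 0.73, adjusted p 0.0511 to 0.157), and the late against daytime call without any 1 of 2 h replicates 1 and 2, 8 h replicates 1, 2 and 3, 12 h replicate 2, 18 h replicates 1, 2 and 3, or 22 h replicate 2 (0.36 to 0.44, adjusted p 0.0506 to 0.141). Without replicate 1 of every time the values were 0.44 (adjusted p = 0.215) and 0.31 (adjusted p = 0.174), and without replicate 2 they were 0.68 (adjusted p = 0.191) and 0.35 (adjusted p = 0.308).

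Socs2 in iBAT was at 5.95, 7.63 and 6.60 CPM in the fed mice, at 3.03 to 26.4 CPM (median 7.95) in the daytime group, and at 4.93, 25.4, 15.1, 28.99 and 12.1 CPM in the late mice. The groups overlapped, since 18 h replicate 1 lay below every fed library and 2 h replicate 2 among the high late ones. Late against daytime, Socs2 rose 2.05-fold (log2 1.04, SE 0.37, adjusted p = 0.0397), and late against fed it gave 1.36 (SE 0.51, adjusted p = 0.0677). The late against daytime call was lost with the replicate block (0.89, adjusted p = 0.0716), with no filter on low counts (1.01, adjusted p = 0.134), with 18 h alone (0.82, adjusted p = 0.865, and 0.0105 to 0.865 over alternatives) and without any 1 of 2 h replicates 1 and 3, 8 h replicates 2 and 3, 12 h replicates 2 and 3, 18 h replicates 2 and 3, or 22 h replicate 2 (0.67 to 1.08, adjusted p 0.0503 to 0.263). It was also lost without replicate 2 (0.48, adjusted p = 0.392) or 3 (1.25, adjusted p = 0.0877) of every time, so that 9 of 20 fits with libraries left out called it. Late against fed was called without any 1 of 2 h replicate 2, 18 h replicate 1 or 22 h replicate 3 (1.37 to 1.63, adjusted p 0.0223 to 0.0444).

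The other genes of the axis in iBAT were not called in a time comparison. Ghr ranged from 190 to 317 CPM over all iBAT libraries (late against fed 0.00, adjusted p = 0.989), Igf1 gave 0.34 (adjusted p = 0.460), Igfbp3 0.11 (adjusted p = 0.778) and Socs3 0.07 (adjusted p = 0.923). Igf2, which did not pass the filter there, was at 0.290, 0.667 and 0.711 CPM in the fed mice and at 0.2796 CPM or less in the late mice. These values rest on few reads, and the difference was not tested. Markers of several cell types moved in the same libraries. Of 8 adipocyte markers 2 rose late against fed, Adipoq (log2 0.81) and Cidec (0.60). Their sum was 16543, 13247 and 13617 CPM in the fed mice, 13682 to 18550.3 CPM in the daytime group and 16668, 18036, 18753, 26147 and 24308 CPM in the late mice, with Fabp4 the most abundant and no marker at 0. Of 6 brown adipocyte markers 1 rose (Cidea, 0.66), and of 8 endothelial and mural markers 4 fell, Kdr by 1.74. Of the 2 hepatocyte markers tested 1 rose (Apoa2, 1.63), with the list at a sum of 10.8 CPM or less, and the 1 gastric epithelium marker tested fell. Marker lists with no call late against fed had medians from -0.67 (brainstem neuron) to 2.49 (exocrine pancreas, 7 tested), with immune cells at 0.80. Late against daytime, 4 adipocyte markers rose and 1 fell, 3 brown adipocyte markers rose, 1 endothelial or mural marker rose and 3 fell, and Apoa2 rose. Also called there were 1 of 6 immune markers (higher), 1 of 2 cerebellar neuron markers (lower) and 2 of 3 epidermis markers (1 in each direction). Their part in the iBAT results was not tested.

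In BRN, Igfbp2 was the gene of the axis that rose. It was at 37.8, 32.8 and 45.8 CPM in the fed mice, at 30.7 to 115.2 CPM (median 65.4) in the daytime group, and at 99.4, 52.2, 77.4, 73.5 and 53.1 CPM in the late mice. All 5 late libraries lay above all 3 fed ones. Late against fed, Igfbp2 rose 1.84-fold (log2 0.88, SE 0.27, adjusted p = 0.0433), and daytime against fed it gave 0.82 (adjusted p = 0.0736). Without the libraries that stand apart the late value was 0.62 (adjusted p = 0.147), with the 5 left-out libraries put back 0.67 (adjusted p = 0.658), with lane as a covariate 0.97 (adjusted p = 0.524), with 22 h alone 0.81 (adjusted p = 0.0939) and with 18 h alone 0.95 (adjusted p = 0.0933), and over alternatives the adjusted p ran from 0.00122 to 0.658. The late call was lost without replicate 1 (0.82, adjusted p = 0.468) or 2 (0.48, adjusted p = 0.323) of every time, and without any 1 of 0 h replicates 1, 2 and 3, 8 h replicates 1 and 2, 12 h replicate 1, 18 h replicate 2, or 22 h replicates 1 and 2 (0.62 to 1.02, adjusted p 0.0508 to 0.173), and 8 of 19 such fits called it. The daytime value was called without replicate 3 of every time (1.09, adjusted p = 0.0236) and without any 1 of 18 h replicates 2 and 3 or 22 h replicate 3 (0.82 to 0.83, adjusted p 0.0396 to 0.0472). Over alternatives the daytime value lay between 0.71 and 1.19 (adjusted p 0.00156 to 0.903, 3 of 8 calling it, among them that without the libraries that stand apart at 0.90), and between 0.61 and 1.09 when replicates or single libraries were left out.

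Igfbp4 in BRN was at 57.2, 68.8 and 71.6 CPM in the fed mice and at 82.4, 101.3, 94.3, 102.7 and 71.8 CPM in the late mice. The late libraries lay above the fed ones, and the lowest of them (71.8 CPM) lay next to the highest fed one (71.6 CPM). The difference was 0.46 (SE 0.17, adjusted p = 0.0759), or 0.53 without the libraries that stand apart (adjusted p = 0.111, and 0.0476 to 0.793 over alternatives), and was called without 12 h replicate 2 (0.46, adjusted p = 0.0446) or 22 h replicate 3 (0.54, adjusted p = 0.0259). Igf1 was at 5.79, 6.76 and 7.55 CPM in the fed mice and at 2.21, 4.43, 3.86, 3.84 and 8.05 CPM in the late mice, which overlapped (-0.65, adjusted p = 0.290). Markers of other tissues moved in the same BRN libraries. Of 8 exocrine pancreas markers 4 rose late against fed (Cpa1, Prss2, Ctrb1 and Clps), with Ctrb1 the most abundant, and 1 of 4 brown adipocyte and 1 of 4 skeletal muscle markers rose. Marker lists with no call had medians from -0.34 (cerebellar neuron) to 0.89 (hepatocyte), beside -0.09 over all genes. Among them were leptomeninges and fibroblasts at 0.58 and brainstem neuron at 0.73. The exocrine sum was 2.61, 8.72 and 2.31 CPM in the fed mice, 4.31 to 62.5 CPM in the daytime group and 15.8, 17.3, 53.4, 87.4 and 16.1 CPM in the late mice, and Amy2a5 was at 0 in the fed mice. Choroid plexus markers summed to 484 to 1350.5 CPM over BRN, with means of 722 CPM fed, 1031 CPM daytime and 966 CPM late, and Ttr the most abundant. Their part in the BRN results was not tested.

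In OB, Igf1 fell and Igfbp2 rose late against daytime. Igf1 was at 55.8, 42.3 and 41.96 CPM in the fed mice, at 36.8 to 54.6 CPM (median 46.8) in the daytime group and at 34.3, 37.2 and 35.5 CPM at 18 h and 44.6, 36.5 and 39.3 CPM at 22 h. The groups overlapped, with the 18 h mice at the low end. Late against daytime, Igf1 fell by 0.32 on the log2 scale (SE 0.08, adjusted p = 0.00645), and late against fed it gave -0.31 (adjusted p = 0.0868). That late against fed value was called by DESeq2 (-0.32, adjusted p = 0.0463), with no filter on low counts (-0.31, adjusted p = 0.0132) and with 18 h alone (-0.39, adjusted p = 0.0363), with adjusted p up to 0.647 over alternatives. Among second-lane libraries alone the late against daytime value was -0.32 (adjusted p = 0.0356), with lane as a covariate -0.30 (adjusted p = 0.146), with 22 h alone -0.24 (adjusted p = 0.305), without replicate 2 of every time -0.26 (adjusted p = 0.0602) and without replicate 3 -0.31 (adjusted p = 0.0993). Over alternatives with all replicates the adjusted p ran from 4.96e-05 to 0.305.

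Igfbp2 in OB was at 115.9, 105.5 and 149.8 CPM in the fed mice, at 81.5 to 130.1 CPM (median 113.1) in the daytime group and at 168.7, 119.9, 127, 139.1, 100.9 and 116.5 CPM in the late group. The late and daytime ranges overlapped. Igfbp2 rose 1.20-fold late against daytime (log2 0.26, SE 0.09, adjusted p = 0.0388), while late against fed gave 0.05 (adjusted p = 0.831). Among second-lane libraries alone the value was 0.38 (adjusted p = 0.0315), with lane as a covariate 0.29 (adjusted p = 0.252), with 22 h alone 0.15 (adjusted p = 0.571), without replicate 1 of every time 0.10 (adjusted p = 0.460) and without replicate 3 0.29 (adjusted p = 0.116). Over alternatives with all replicates the adjusted p ran from 0.000184 to 0.571. Leaving out 1 library at a time was run in LIV, STM, iBAT and BRN and not in OB.

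Cell markers moved in OB in the same comparison. Late against daytime 3 of 8 olfactory bulb neuron markers rose (Calb2, Dlx2 and Doc2g), as did 1 of 6 neuron markers, 1 of 7 cerebellar neuron markers, 1 of 3 skeletal muscle markers and 2 of 5 epidermis markers. Among endothelial and mural markers 1 of 8 fell (Kdr), and among immune markers 1 of 5 (Ptprc). The summed olfactory bulb neuron markers ranged from 2041 to 2849 CPM over OB, with means of 2382 CPM fed, 2281 CPM daytime and 2467 CPM late, Calb2 the most abundant and no marker at 0. Their part in the OB results was not tested.

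In STM, pgWAT, psWAT, CBL and BST no gene of the axis was called in any of the 3 comparisons by edgeR or DESeq2 with the filter on low counts. With no filter edgeR called Igfbp3 in BST late against daytime (0.43, adjusted p = 0.0214), where the value with the filter was 0.44 (adjusted p = 0.321, and 0.0214 to 0.661 over alternatives). Late against fed, the count at an unadjusted p under 0.05 was 1 of 8 in STM, 1 of 9 in pgWAT, 1 of 8 in psWAT, 2 of 8 in CBL and 0 of 8 in BST. Over all genes it was 5266 of 16281 in STM, 3567 of 16412 in pgWAT, 867 of 16721 in psWAT, 2402 of 15976 in CBL and 1656 of 16784 in BST. In STM, Igfals was at 4.65, 4.65 and 6.93 CPM in the fed mice and at 0.511 to 5.14 CPM (median 1.86) in the late group, with overlap (-1.25, adjusted p = 0.0803). Late against fed in STM, 3 of 8 gastric epithelium, 4 of 7 exocrine pancreas, 3 of 6 choroid plexus, 2 of 8 adipocyte, 1 of 4 brown adipocyte, 1 of 8 hepatocyte, 1 of 2 cerebellar neuron and 1 of 1 anterior pituitary markers fell. There 3 of 3 neuron, 2 of 4 brainstem neuron, 1 of 5 olfactory bulb neuron, 1 of 8 adipocyte and 1 of 8 endothelial and mural markers rose. The gastric epithelium sum averaged 223553 CPM fed and 133864 CPM late, with Pgc the most abundant, and that of exocrine pancreas 48601 and 31177 CPM, with Clps the most abundant. Their part in the STM values was not tested. In CBL, Igfbp2 was at 37.99, 89.97 and 57.95 CPM in the fed mice and at 26.5 to 51.3 CPM in the late group, with overlap (-0.83, adjusted p = 0.224). In pgWAT, Socs2 gave 0.59 late against fed (adjusted p = 0.223) and Igfals -0.91 (adjusted p = 0.266), with the library poor in adipocyte markers included. Other tissues also differed between pgWAT libraries: epididymis and testis markers summed to 0 to 10946 CPM (highest in 18 h replicate 3, Adam7 the most abundant) and hepatocyte markers to 5.08 to 4962 CPM (highest in 18 h replicate 2, Alb the most abundant), with late against fed medians of 9.52 and 5.91 and no marker of either called by edgeR. Their part in the pgWAT values was not tested. The pgWAT library poor in adipocyte markers, 22 h replicate 2, held 187.3 CPM of Ghr, 100.4 CPM of Igf1, 4.24 CPM of Igfals and 192.2 CPM of Igfbp4, against 1794 and 1527, 527 and 435, 38.2 and 34.6, and 670 and 1012 CPM in the other mice of that time.

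Whether the late change of LIV differed from that of another organ was tested in a fit over all organs that pairs them by mouse. Libraries with the same fasting time and replicate number were taken as the same mouse. Of 60 differences, 8 were called and 21 had an unadjusted p under 0.05, and in all 8 the LIV change was the higher: Socs2 against 6 organs, Socs3 against pgWAT and Igf1 against BRN. The same rule called 17.1% of all genes against BRN, 15.5% against iBAT, 8.85% against pgWAT, 1.93% against STM, 0.927% against CBL, 0.421% against OB, 0.349% against psWAT and 0.335% against BST. Socs2 differed by 1.79 on the log2 scale from STM (SE 0.50, adjusted p = 0.0383), 1.70 from pgWAT (SE 0.51, adjusted p = 0.0223), 2.00 from OB (SE 0.51, adjusted p = 0.0405), 2.79 from BRN (SE 0.54, adjusted p = 0.000157), 2.18 from CBL (SE 0.51, adjusted p = 0.0146) and 2.09 from BST (SE 0.52, adjusted p = 0.0429). Its own late against fed differences there were 0.39, 0.59, 0.16, -0.60, -0.04 and 0.09, and in LIV 2.32, where the test within LIV did not call it. Socs3 differed by 1.72 from pgWAT (SE 0.50, adjusted p = 0.0169), where its own difference was -0.69, and Igf1 by 1.16 from BRN (SE 0.41, adjusted p = 0.0372), where it was -0.65.

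**Figure D3:**
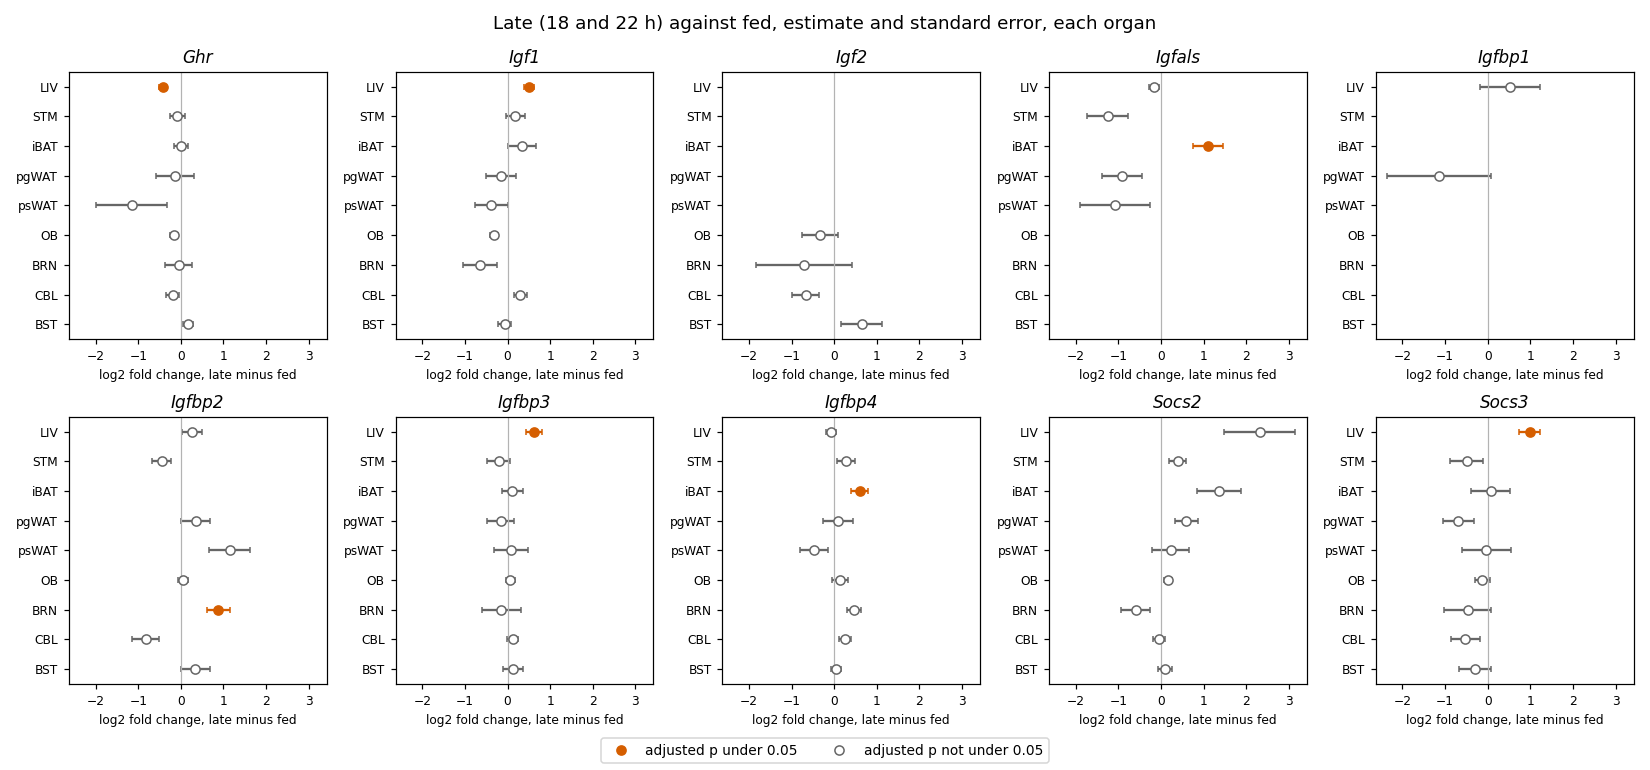
Late against fed log2 difference of the 10 genes in each organ where they were tested, with bars of 1 standard error and filled points for called differences. Socs2 stands at 2.32 in LIV and between -0.60 and 1.36 in the other organs.

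The fit over all organs shares its estimate of the spread between them. For Socs2 its SE (0.50 to 0.54 in the called differences) was smaller than that of the late change within LIV alone. With LIV and the same organ alone in the fit, the SE was 0.64 (STM) to 0.83 (BST). For Socs2 the p of the fit over all organs is therefore not a measure of the spread between mice in LIV. With LIV and 1 other organ alone in the fit, 7 differences were called: Igfals against iBAT (-1.26, adjusted p = 0.0148), Igf1 against OB (0.79, adjusted p = 0.00978), Socs3 against OB (1.07, adjusted p = 0.0323) and CBL (1.52, adjusted p = 0.0192), Socs2 against BRN (2.96, adjusted p = 0.0196), Igfbp2 against CBL (1.00, adjusted p = 0.0458) and Ghr against BST (-0.60, adjusted p = 0.0229). These fits called 0.613% of all genes against STM, 12.4% against iBAT, 0.0499% against pgWAT, 0.00713% against psWAT, 4.41% against OB, 8.42% against BRN, 9.46% against CBL and 5.33% against BST. Socs2 against BRN was called by both fits, and the others by 1 of them. In the fit over all organs, Igfals and Igfbp4, which rose in iBAT and not in LIV, differed by -1.36 (adjusted p = 0.113) and -0.67 (adjusted p = 0.139), Igfbp2 differed between LIV and BRN by -0.60 (adjusted p = 0.369), and Ghr by -0.62 to 0.71 from the other organs, none called. Without the libraries that stand apart, Socs2 and Socs3 against pgWAT were 1.56 and 1.63 and still called, Socs2 against BRN was 2.59 and still called, and Igf1 against BRN was 0.94 and lost its call (adjusted p = 0.107, and 0.0209 to 0.228 over alternatives). Called then and not with them were Socs3 against STM (1.51, adjusted p = 0.0370, and 0.0370 to 0.343 over alternatives), Igfbp3 against pgWAT (1.12, adjusted p = 0.0260, and 0.0260 to 0.862) and Socs2 against psWAT (1.91, adjusted p = 0.0394, and 0.0241 to 1). Leaving out replicate 1, 2 or 3 of every time left 2, 1 and 11 differences called, among them 1, 1 and 5 of the 8. In these 3 fits Socs2 was called 0 times against STM (1.34 to 2.44), OB (1.54 to 2.52) and BST (1.51 to 2.91), once against pgWAT and CBL, and Igf1 once against BRN, while Socs2 against BRN lost its call without replicate 2 (2.02, adjusted p = 0.0948) and Socs3 against pgWAT without replicate 1 (1.15, adjusted p = 0.354). Gained were Socs2 against psWAT without replicate 1 (3.08), and without replicate 3 Ghr, Igf1 and Igfals against psWAT (2.89, 1.57 and 4.02), Igfals and Igfbp4 against iBAT (-1.70 and -0.98) and Igfbp3 against BRN (1.78).

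The rest of the pathway was read from lists of genes, with counts of late against fed calls in LIV and a median beside the 0.01 of all genes. The share of all LIV genes called was 10.6%, and the counts of the lists with calls lie near it. Of 18 tested receptor and adaptor genes of IGF and insulin signalling, 2 rose and 1 fell, with a median of 0.13. The adaptor gene Gab1 rose (0.50, SE 0.14, adjusted p = 0.0274, from a mean of 13.5 to 19.1 CPM), as did Pik3ca, a catalytic subunit of phosphoinositide kinase (0.43, SE 0.13, adjusted p = 0.0459, from 25.4 to 34.3 CPM). Pik3r1, its regulatory subunit, fell by 0.39 (SE 0.11, adjusted p = 0.0238, from 89.8 to 68.4 CPM). Of 14 tested genes of interleukin-6 signalling and the acute phase, 1 rose, the interleukin-1 receptor gene Il1r1 (0.95, SE 0.24, adjusted p = 0.0198, from 57.3 to 111.2 CPM), and the median was -0.18. No gene was called among 12 of growth hormone receptor signalling (median 0.04), 15 growth hormone responsive liver genes (-0.03), 16 of glucocorticoid, cyclic AMP and stress signalling (0.25), 4 other IGF binding proteins and proteases (-0.24) and 1 of growth hormone secretion (-0.93). At an unadjusted p under 0.05 (and by DESeq2) these counts were, for glucocorticoid, cyclic AMP and stress signalling, 4 (1), growth hormone receptor signalling, 3 (1), growth hormone responsive liver genes, 6 (3), growth hormone secretion, 1 (0), other IGF binding proteins and proteases, 0 (0). Over all 14023 LIV genes they were 3740 (1766).

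Late against daytime in LIV, genes of these lists that fell include Stat5a, a transcription factor of the growth hormone receptor (-0.57, SE 0.14, adjusted p = 0.0387), and Elovl3, a fatty acid elongase gene (-1.12, SE 0.23, adjusted p = 0.0296). In iBAT late against fed, where 20.9% of all genes were called, 4 of 12 growth hormone signalling genes fell (median -0.45), 6 of 18 receptor and adaptor genes fell (-0.17), and of 7 other binding proteins and proteases 1 rose and 3 fell (-0.81), beside -0.07 over all genes. In STM 4 of 20 receptor and adaptor genes rose, near the 15.3% of all genes called there. Of 10 growth hormone responsive genes in STM 1 rose and 2 fell, and 3 of 14 glucocorticoid, cyclic AMP and stress genes rose. In BRN 2 of 20 receptor and adaptor genes fell, near the 11.2% of all genes. Late against daytime in OB, where 24.2% of all genes were called, of 13 growth hormone signalling genes 1 rose and 4 fell, and of 19 receptor and adaptor genes 4 fell. In pgWAT late against fed, edgeR called 0 of 13 growth hormone signalling genes, 5 had an unadjusted p under 0.05 and DESeq2 called 3, beside 3567 and 1191 of all 16412 genes there.

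The genes whose levels were most like those of each member over the 18 LIV libraries, among 14023 genes by Pearson's r of log2 CPM, are given as a description. For Ghr they were Echdc1 (0.950), Lgals9 (0.926) and Usp14 (0.908), and for Igf1 Zfp598 (0.887), Tlk2 (0.878) and Ergic2 (0.869). For Igfals they were Golga3 (0.761), Fkbpl (0.751) and Lifr (0.722), and for Igfbp3 Mthfd1l (0.891), Cyp2a4 (0.878) and Eif4b (0.871). For Igfbp1 they were Ing1 (0.863), Mat1a (0.833) and Trp53inp1 (0.787), for Igfbp2 Gm12174 (0.921), Uqcrh (0.910) and Psmd3 (0.908), and for Igfbp4 Spr (0.919), Seh1l (0.918) and Psmc1 (0.911). For Socs2 they were Slc25a30 (0.893), Mcm10 (0.867) and Abhd17b (0.858), and among those for Socs3 were C8a (0.822) and B4galt1 (0.801). Between members the r with the greatest size were those of Igf1 and Socs2 (0.757), Igfbp2 and Igfbp4 (0.719), Ghr and Igf1 (-0.595), Igf1 and Igfbp3 (0.564), and Socs2 and Socs3 (0.523). The libraries share the fasting times, the lanes and the scaling.

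In psWAT the levels of Ghr, Igf1, Igfals and Igfbp4 ran with the summed adipocyte markers, and the other genes of the axis were not set against them. Ghr was at 696, 342 and 47.6 CPM in the fed mice, at 21.7 to 771 CPM in the daytime group and at 116.7, 242, 399.8, 13.7 and 195 CPM in the late mice. The ranges of the groups overlapped, with all 2 h libraries low (46.4, 68.2 and 21.7 CPM) and the 8 h libraries higher (771, 229 and 701 CPM). Igf1 ranged from 42.6 to 322 CPM, Igfals from 0.506 to 41.2 CPM and Igfbp4 from 229 to 936 CPM. Over 17 libraries and against the summed adipocyte markers (8 of 8 tested, Fabp4 the most abundant, none at 0), on log2 of CPM plus 1, Pearson's r and Spearman's rho were 0.956 and 0.946 for Ghr, 0.947 and 0.944 for Igf1, and 0.968 and 0.958 for Igfals. Each had a two-sided permutation p of 1e-05, the smallest the permutations can give (adjusted 1.75e-05 over 7 relations). Igfbp4 gave 0.834 and 0.819 (permutation p = 6e-05 and 4e-05, adjusted 8.4e-05 and 5.6e-05). Without the 2 libraries farthest from the median sum, 22 h replicate 1 and 8 h replicate 1, r was 0.937 for Ghr, 0.954 for Igf1, 0.964 for Igfals and 0.791 for Igfbp4. Within lane 5 (n = 10) and lane 7 (n = 6) r was 0.923 and 0.944 for Ghr, 0.928 and 0.913 for Igf1, 0.953 and 0.965 for Igfals, and 0.653 and 0.889 for Igfbp4.

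Igfbp2 in CBL ran with markers of choroid plexus, the tissue that makes cerebrospinal fluid. Their sum ranged from 728 to 5493 CPM, with means of 3657 CPM in the fed, 2770.2 CPM in the daytime and 1449 CPM in the late mice, Ttr the most abundant (2310.4 CPM) and no marker at 0. Over 18 libraries of 1 lane, r was 0.947 and rho 0.932 (permutation p = 1e-05 for each, adjusted 1.75e-05), and r was 0.931 without the 2 libraries farthest from the median sum. In OB r was 0.314 and rho 0.0464 (permutation p = 0.214 and 0.859), with 0.649 in lane 3 (n = 8) and -0.426 in lane 4 (n = 10), and r was -0.342 without 0 h replicate 3 (370 CPM of these markers) and 2 h replicate 3. In BRN r was 0.297 and rho 0.432 (permutation p = 0.266 and 0.0945), with 0.691 in lane 4 (n = 6), and r was 0.0635 without 0 h replicate 3 and 12 h replicate 2. BST libraries fell into separate sets by that sum, so no r is given: 10 libraries at 1996 to 3817 CPM (1 fed, 4 daytime and 5 late) held 52.5 to 85.0 CPM of Igfbp2, and 8 at 33.97 to 198 CPM (2 fed, 5 daytime and 1 late) held 30.9 to 40.8 CPM. The part of choroid plexus in the Igfbp2 values of the brain organs was not tested.

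On the mouse genome (GRCm38) the genes lie at chr15:3317760-3583492 (Ghr, minus strand, ENSMUSG00000055737), chr10:87858265-87937042 (Igf1, plus, ENSMUSG00000020053), chr7:142650766-142666816 (Igf2, minus, ENSMUSG00000048583), chr17:24865997-24882010 (Igfals, plus, ENSMUSG00000046070) and chr1:72824503-72852474 (Igfbp2, plus, ENSMUSG00000039323). Igfbp1 (chr11:7197782-7202546, plus, ENSMUSG00000020429) and Igfbp3 (chr11:7206086-7213923, minus, ENSMUSG00000020427) are neighbours that run toward each other with 3539 bases between them, and Igfbp1 had its highest level in LIV and Igfbp3 in psWAT. Igfbp4 lies at chr11:99041244-99054392 (plus, ENSMUSG00000017493), Socs3 at chr11:117966079-117970047 (minus, ENSMUSG00000053113) and Socs2 at chr10:95385362-95417180 (minus, ENSMUSG00000020027). Other annotated genes overlap Igf1 (Igf1os, on the other strand) and Igf2 (Igf2os, Mir483 and Gm49394).

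Promoters of 300 bases were taken from a RefSeq set (GRCm38.p6) that held 9 of the 10 genes and did not hold Socs2. They were searched on both strands for TTCNNNGAA, the pattern bound by STAT factors (in 8.3% of 32851 promoters), for CAAAACA, the core of the insulin response element (6.28%), and for GTAAACA, the pattern bound by FOXO factors (3.65%). A match is a description of the letters and not a site. Matches were found in promoters of Socs3, Igfbp1 and Igfals, which are printed 5′ to 3′ since Socs3 rose in LIV, Igfals rose in iBAT and Igfbp1 is the classic insulin-repressed gene, with the match in capitals. They are Socs3 at chr11:117969317-117969616 (minus strand, TTCTTAGAA at -154 from the start), Igfbp1 at chr11:7197537-7197836 (plus, CAAAACA at -108), and Igfals at chr17:24877981-24878280 (plus, TTCCTAGAA at -58, and GTAAACA on the other strand, read as TGTTTAC, at -242). A further Igfals start, at chr17:24877594-24877893, has TTCTCAGAA at -236.
Socs3: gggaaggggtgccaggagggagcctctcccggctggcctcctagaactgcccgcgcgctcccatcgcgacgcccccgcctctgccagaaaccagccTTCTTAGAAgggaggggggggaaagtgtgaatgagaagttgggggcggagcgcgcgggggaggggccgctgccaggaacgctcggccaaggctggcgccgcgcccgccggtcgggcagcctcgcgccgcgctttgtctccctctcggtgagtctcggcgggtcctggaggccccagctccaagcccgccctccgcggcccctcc
Igfbp1: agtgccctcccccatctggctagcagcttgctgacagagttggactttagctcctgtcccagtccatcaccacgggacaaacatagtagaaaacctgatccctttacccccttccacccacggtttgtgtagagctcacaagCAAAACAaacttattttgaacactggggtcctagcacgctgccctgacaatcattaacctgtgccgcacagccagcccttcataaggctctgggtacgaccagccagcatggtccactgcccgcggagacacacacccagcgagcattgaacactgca
Igfals: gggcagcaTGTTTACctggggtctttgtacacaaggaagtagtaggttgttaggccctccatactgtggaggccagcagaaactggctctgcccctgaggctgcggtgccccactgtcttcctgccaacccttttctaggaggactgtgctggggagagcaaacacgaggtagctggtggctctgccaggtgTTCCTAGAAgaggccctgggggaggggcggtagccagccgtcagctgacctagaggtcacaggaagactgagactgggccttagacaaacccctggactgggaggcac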

How the data were processed

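The study sequenced messenger RNA from 9 organs of 18 mice, 18 libraries an organ. The authors aligned paired reads with TopHat2 2.1.1 to GRCm38.p5, kept unique reads, and counted them per gene with HTSeq-count 0.9.1 on Gencode M16, and the values deposited are these read counts. The 10 genes were taken by symbol. They and the gene lists were chosen with earlier results of these data known.

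Libraries were grouped by fasting time: fed (0 h), daytime (2, 8 and 12 h) and late (18 and 22 h). The 5 libraries the authors removed were left out, and 157 libraries of 3045845 to 27801717 counts (median 8735554) remained. In a library of median depth 10 counts are the minimum of the filter, which had to be reached in at least 3 libraries of an organ. Counts were scaled by TMM within each organ for the time comparisons and over all 157 libraries for levels between organs.

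The time comparisons were tested in each organ with the quasi-likelihood F test of edgeR 4.0.16 (limma 3.58.1, R 4.3.3) on the 6 fasting times, with group means as contrasts. Every adjusted p is that of Benjamini and Hochberg, over all genes tested or, for the marker relations, over the 7 relations. A gene is called at an adjusted p under 0.05. Differences between organs came from an edgeR fit over all organs with a term for each mouse, so that organs were paired by mouse. The mouse was read from the fasting time and replicate number in the sample titles. Marker relations used two-sided permutation tests with 100000 permutations in Python 3.11.15 with scipy 1.17.1 and numpy 2.4.6, and figures were drawn with matplotlib 3.10.9.

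The alternatives were DESeq2 1.42.0, another normalization (RLE), no filter, the replicate number as a block, all 162 libraries, no libraries that stand apart, lane as a covariate, the log2 fold of 1 the study used, 22 h or 18 h alone, and leaving out replicates or single libraries. Text names the 10 genes, and from 7 pathway lists each gene called in LIV late against fed or late against daytime, up to 6 a list by smallest adjusted p, with other organs as counts. It also names the 3 genes most like each gene in LIV. Some genes that these rules name are not printed. From 17 marker lists it names the most abundant marker and those at 0, and other markers were named after their values were seen.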

Additional observations from a re-analysis of the deposited data

Results flagged for a closer look

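The late against fed change was higher in LIV than in another organ, by a test of the difference itself paired by mouse, in 8 cases. For Socs2 the LIV change exceeded that of STM by 1.79 on the log2 scale, that of pgWAT by 1.70, that of OB by 2.00, that of BRN by 2.79, that of CBL by 2.18 and that of BST by 2.09. For Socs3 it exceeded that of pgWAT by 1.72, and for Igf1 that of BRN by 1.16. Within LIV alone Socs2 was not called late against fed (adjusted p = 0.0972). The SE of its differences in the fit over all organs (0.50 to 0.54) was smaller than that of the LIV change alone. Igf1 against BRN lost its call without the libraries that stand apart. In LIV late against fed also differs by sequencing lane, with only the 8 h mice in both lanes. With lane as a covariate the late change within LIV was 1.57 for Socs2 and 0.69 for Igf1. Neither was called then (adjusted p = 0.696 and 0.148), nor was Socs3 (adjusted p = 0.313). The part of lane in the differences between organs was not tested. With LIV and the other organ alone in the fit, Socs2 against BRN was called (2.96, adjusted p = 0.0196) and the other 7 were not. When replicate 1, 2 or 3 of every time was left out, 1, 1 and 5 of the 8 were called, and Socs2 against STM, OB and BST in none of these fits. What brings these differences about was not tested.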

How the results depend on the processing

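Late against fed, 7 genes by organ were called, 11 by DESeq2, 2 with lane as a covariate, 1 where a log2 fold over 1 was also asked, and 5 to 8 under the other alternatives with all replicates. Leaving out replicates or single libraries gave 0 to 9. Daytime against fed, 1 was called, 3 by DESeq2, 4 without a filter on low counts, 2 without the 4 libraries that stand apart, 0 with lane as a covariate and 0 within the first lane. Leaving out replicates or single libraries gave 0 to 2. Late against daytime, 5 were called, 9 without a filter, 3 with the replicate number as a block, 3 with lane as a covariate, 1 with the fold rule, 2 with 22 h alone and 3 with 18 h alone. Leaving out gave 2 to 6. The cause of these shifts was not tested.

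Of the differences between LIV and another organ 8 were called, 1 with 22 h alone and 3 with the 5 left-out libraries put back, and 1 to 11 when a replicate was left out. For the highest organ 7 genes were called, and 6 to 7 under the alternatives run. No named result changed direction past the threshold: of the values under alternatives 803 kept their side of it, 65 gained a call and the others lost one. Within an organ the replicate numbers join different mice. In the check of that block, the correlation of libraries with the same number had a median of -0.0035 in LIV (lowest -0.334, highest 0.166) and 0.0929 in iBAT. The fits within lanes, and with LIV and 1 other organ alone, were chosen after seeing the data. Lane could not be fitted in CBL and BST, which ran in a lane each. Depth limits genes of a few counts, such as Igf2 and Igfbp1 outside LIV.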
